A study of Mus musculus with 3 samples.

Results

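The 10 genes described here encode enzymes that make and attach sialic acid: *Gne*, *Nans*, *Cmas* and *Cmah* of the synthesis of the sugar donor, and the sialyltransferases *St6gal1*, *St3gal1*, *St3gal3*, *St3gal4*, *St3gal6* and *St6galnac4*. They were taken by symbol from the 31053 genes shared by the feature lists of 3 single-cell libraries. No cut-off on a measured value picked them, but the list was drawn up with earlier results of these data known. The libraries hold sorted cells of mouse Peyer's patches, the lymphoid organs of the small intestine, labelled as blood endothelial cells (EC). There was 1 control library, labelled WT on the C57BL/6 strain, and there were 2 replicate EC-iCOUP_OE libraries of the genotype CDH5(PAC)CreERT2;COUP-TFIIOE/OE, all from mice of 6 to 10 weeks. In EC-iCOUP_OE mice the *Cdh5* promoter, which is active in endothelium, drives a tamoxifen-inducible Cre that switches on a COUP-TFII (*Nr2f2*) transgene. Cells were collected between 14 and 19 days after tamoxifen, with cohorts of both sexes pooled. The study's methods describe controls as littermates without Cre, and its results name both tamoxifen-treated controls without Cre and WT mice. Whether the mice of the library labelled WT were such littermates, or received tamoxifen, is not stated for that library. The number of mice and the day behind each library are not given in the sources used here. With 1 control library, genotype and library cannot be told apart, genotypes are compared by a rule of size in place of a test, and every interval covers counting error only.

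Sialic acids cap the outer ends of cell-surface sugar chains. Gne makes the precursor from UDP-GlcNAc, Nans condenses it to sialic acid phosphate, Cmas activates the free sugar to CMP-sialic acid in the nucleus, and Cmah hydroxylates that donor to the glycolyl form that mouse CD22 prefers. In the Golgi, St6gal1 attaches sialic acid in α2,6 linkage to lactosamine, which makes the ligand of the B-cell lectin CD22, while the St3gal enzymes attach it in α2,3 linkage, the linkage found in selectin ligands of high endothelial venules.

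*St6gal1* (ENSMUSG00000022885) lies on the plus strand at chr16:23224740-23360350 of GRCm38 (mm10) and is annotated as protein coding, with 5 transcripts in GENCODE vM21. RefSeq lists 3 starts for it on GRCm38.p6, the later ones 1.281 and 65.73 kb downstream of the first. Because the study concerns COUP-TFII and NKX2-3, each window of 250 bases before to 50 after a start was searched on both strands for GGTCA, a site that COUP-TFII can bind, and AAGTG, the core of an NKX2 site. These windows are shown to let the starts be compared, and capitals mark the matches.
St6gal1 start 1, chr16:23224490-23224789, plus strand: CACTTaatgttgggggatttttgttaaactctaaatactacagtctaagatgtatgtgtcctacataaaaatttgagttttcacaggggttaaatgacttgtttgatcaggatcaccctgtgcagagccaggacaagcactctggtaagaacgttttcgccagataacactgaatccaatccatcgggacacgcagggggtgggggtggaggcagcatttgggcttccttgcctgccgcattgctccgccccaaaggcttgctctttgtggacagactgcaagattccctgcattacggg
St6gal1 start 2, chr16:23225771-23226070, plus strand: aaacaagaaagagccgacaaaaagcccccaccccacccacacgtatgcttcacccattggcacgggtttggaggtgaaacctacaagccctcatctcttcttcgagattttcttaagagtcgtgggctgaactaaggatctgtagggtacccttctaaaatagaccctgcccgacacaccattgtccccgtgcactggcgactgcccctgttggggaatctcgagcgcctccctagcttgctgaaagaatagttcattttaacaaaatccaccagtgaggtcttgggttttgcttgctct
St6gal1 start 3, chr16:23290220-23290519, plus strand: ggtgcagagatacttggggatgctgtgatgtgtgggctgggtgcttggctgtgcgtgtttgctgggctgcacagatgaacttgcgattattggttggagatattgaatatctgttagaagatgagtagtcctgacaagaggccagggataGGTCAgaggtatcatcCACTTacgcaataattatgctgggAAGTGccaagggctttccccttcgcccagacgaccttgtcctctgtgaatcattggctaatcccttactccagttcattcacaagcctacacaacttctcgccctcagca

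The window of the downstream start held GGTCA at position -100 and AAGTG, read on either strand, at -84 and -60, counted from the start. The first window held AAGTG at -250 on the minus strand, and the second held neither. Of 32851 RefSeq windows of this length, 40.5% held GGTCA, 46.4% held AAGTG and 19.6% held both, so such matches are common. Of 13 windows listed for 8 members, 6 held GGTCA, 6 held AAGTG and 3 held both. The 3′ counts do not say which start was used. The windows of the later starts lie within the span of the gene, and its introns were not searched outside these windows.

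The libraries held 6080 barcodes (control), 4959 (replicate 1) and 1441 (replicate 2), with 17341398, 17417260 and 3548983 unique molecular identifiers (UMIs, 1 per captured molecule). After filters, 2441, 3355 and 974 cells clustered as blood EC. Despite the label, 2490 control cells were fibroblast-like and 205 glia-like, against 8 and 2 in replicate 1 and 4 and 5 in replicate 2, whereas lymphatic-like cells numbered 0, 923 and 127. The control and replicate 2 shared 12 barcodes and no other pair shared any. Cell classes were named from marker genes: capillary EC of the patch (PP CapEC; 850, 956 and 493 cells), arterial EC (287, 722 and 191), high endothelial cells (HEC; 433, 102 and 2), EC of post-capillary venules (PCV; 318, 494 and 85), capillary resident progenitors (CRP; 186, 129 and 63) and a villus-labelled capillary class (LP CapEC; 109, 123 and 46). All 8 capillary markers were higher in control PP CapEC than in other blood EC, and 7 and 6 of 8 in the replicates. LP CapEC took its name from the subset label that was most frequent among those of its cells that the study labelled, at 38 of 82. The most frequent label in the arterial clusters was that of PP capillaries, so both names depend on this clustering. Blood EC clusters 5, 8 and 11 matched no single list and stay unnamed. In PP CapEC, *Nr2f2* had 15 UMIs in the control against 4619 and 1289, and *Madcam1*, the mucosal addressin, had 136 against 5320 and 3106. *Nkx2-3*, a homeobox gene of this endothelium, had 1264, 1168 and 444 UMIs, log2 ratios of CPM of -0.78 (-0.89 to -0.66) and -1.08 (-1.24 to -0.92), and was not called.

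*St6gal1* was captured at low depth, with 212, 350 and 79 UMIs in all cells. Its level, as UMIs of the gene over all UMIs of the class in that library (CPM), was highest among blood EC in PCV of every library, at 49.7 CPM in the control, 55.4 in replicate 1 and 64.1 in replicate 2. In PP CapEC it was 4.14 CPM in the control (6 UMIs, 95% Poisson interval 1.52 to 9.02), 19.2 in replicate 1 (44 UMIs, 13.9 to 25.8) and 19.5 in replicate 2 (21 UMIs, 12.1 to 29.9). Both EC-iCOUP_OE libraries were thus above the control in PP CapEC and their intervals did not overlap it, while the PCV intervals of the 3 libraries overlapped.

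In the control, *St6gal1* was higher in PCV than in PP CapEC by 3.59 on the log2 scale (2.37 to 5.09). The log2 difference was 1.53 (1.02 to 2.06) in replicate 1 and 1.71 (0.68 to 2.72) in replicate 2. *St6gal1* was the 1 of 8 members tested that was at least 2-fold higher in PCV than in PP CapEC in each library, a rule that 2.2% of 9185 genes met. No member met the reverse rule, which 1.86% of genes met. Of the same 8 members, 0 met either rule between arterial EC and PP CapEC (1.37% of genes higher, 0.819% lower), LP CapEC and PP CapEC (0.859% and 0.447%) or CRP and PP CapEC (0.755% and 0.79%).

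HEC had a lower *St6gal1* CPM than PCV, at 12.2 in the control and 23.0 in replicate 1, which were 4.08 and 2.41 times lower. CPM is a share of all UMIs of a class, and HEC cells held more UMIs. Their medians were 7364 in the control and 6816.5 in replicate 1, against 3116 and 3778 in PCV and 1436.5 and 2131 in PP CapEC. Levels per cell were not compared. *St3gal1* and *St6galnac4* were also at least 2-fold lower in HEC than in PCV in both libraries with enough HEC, making 3 of 9 members tested against 8.01% of 8593 genes, and 0 were higher, against 3.04%. Unnamed cluster 8 was near PCV, at 46.9, 42.1 and 38.4 CPM, the last from 1 UMI. The arterial class stood at 11.2, 8.55 and 14.9 CPM with overlapping intervals, but its cells differed between the libraries. Its 8 arterial markers summed to 4860 CPM in the control and 2170 and 2039 in the replicates, against 591, 373 and 489 in other blood EC. Its 8 capillary markers summed to 4787, 7395 and 6750 CPM. The paper identified mature arterial EC only in its WT cohort, so these levels are not a comparison of matching arterial cells.

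Outside blood EC, *St6gal1* was high in control glia-like cells, at 81.7 CPM (25 UMIs, 52.9 to 120.6), and low in fibroblast-like cells, at 6.09 CPM. Pericyte or smooth muscle-like cells held 22.9, 19.6 and 27.9 CPM, with no order between the libraries beyond the intervals. In that class 10 blood endothelium markers summed to 2986, 3426 and 593 CPM, against 5601, 6723 and 6187 in blood EC. The part of endothelial RNA in its levels was not tested. Lymphatic-like cells held 0.838 CPM in replicate 1 (2 UMIs) and 0 UMIs in replicate 2. In the order of classes within each library, all neighbours had overlapping intervals except arterial EC and lymphatic-like cells of replicate 1, so only distant ranks can be separated.

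**Figure D1:**
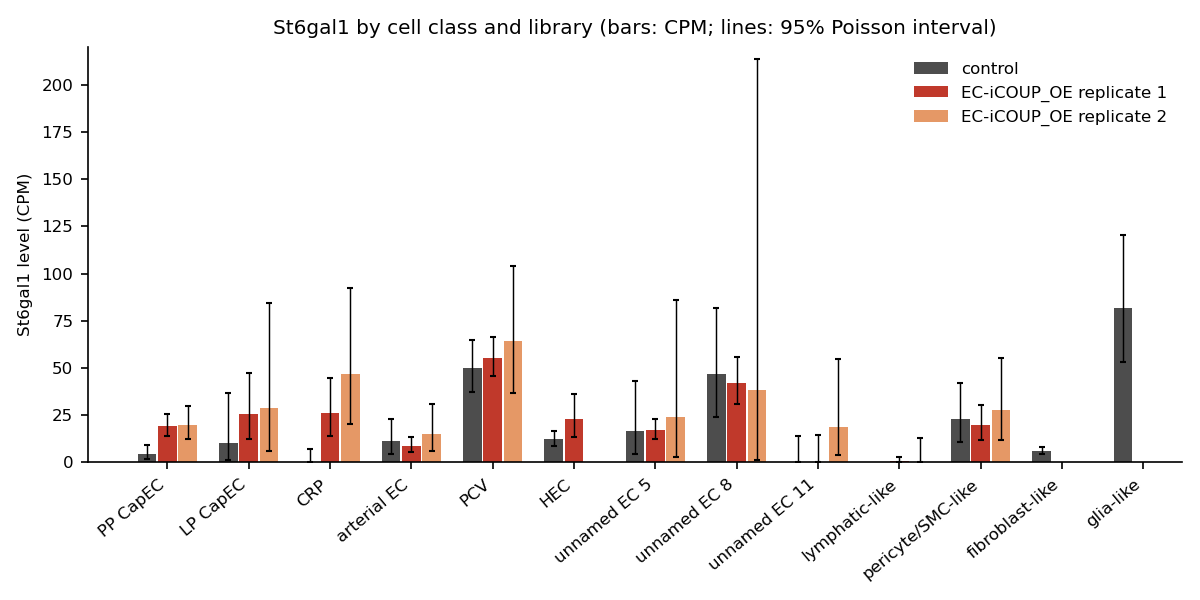
St6gal1 level (CPM, y axis) in each cell class (x axis) of the control and the 2 EC-iCOUP_OE libraries, with 95% Poisson intervals as lines; a class with under 10 cells in a library has no bar, and a level of 0 shows only its line. PCV stand at 49.7 to 64.1 CPM in all 3 libraries, while PP CapEC go from 4.14 in the control to 19.2 and 19.5.

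The comparison of EC-iCOUP_OE with control asks how COUP-TFII in capillary endothelium relates to the venous pattern of *St6gal1* and to the levels of the other members. In PP CapEC *St6gal1* was higher by 2.21 on the log2 scale in replicate 1 (0.98 to 3.73) and by 2.24 in replicate 2 (0.88 to 3.84), a mean of 2.22 ± 0.02 (SD, n = 2 ratios to the same control). A gene was called where both replicates passed 2-fold in the same direction with at least 50 UMIs in all. By that rule 1 of 8 members tested was called higher in PP CapEC, against 4.32% of 7916 genes, and 0 were called lower, against 2.55%. With 6 UMIs in the control, the size of the ratio is known only within the wide intervals given.

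PP CapEC joined 4 clusters whose shares differed between genotypes. Most control cells lay in clusters 3 (408, 143 and 140 cells) and 6 (419, 54 and 19), most of replicate 1 in cluster 1 (23, 740 and 86), and most of replicate 2 in clusters 12 (0, 19 and 248) and 3. In cluster 3, the one with many cells of each library, *St6gal1* had 3, 1 and 2 UMIs (3.79, 3.37 and 7.69 CPM), and the mean log2 ratio was 0.43 ± 0.84 (SD, n = 2), so no difference was detectable there at this depth. In cluster 3 *Nr2f2* had 6, 255 and 129 UMIs and *Madcam1* had 24, 113 and 48, and both were called higher. In cluster 1 *St6gal1* had 0, 42 and 8 UMIs (23.1 and 47.1 CPM in the replicates). The 23 control cells there held only 39763 UMIs of all genes. The log2 ratios in cluster 1 had lower limits of -2.07 and -1.32, so no difference could be shown there. In cluster 12 replicate 2 held 11 UMIs (17.9 CPM). How far the ratio of the whole class comes from a change of level in matching cells or from the makeup of the class was not tested.

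Within EC-iCOUP_OE PP CapEC, thinned to 1000 UMIs per cell, *St6gal1* lay mostly in cells that also held *Madcam1*. In replicate 1 the level was 25.5 CPM in 666 cells with a *Madcam1* UMI (14.9 to 40.9) and 3.45 in 290 cells without (0.09 to 19.2). In replicate 2 it was 22.4 CPM in 312 cells with *Madcam1* (9.02 to 46.2), and 0 UMIs were found in the 181 cells without, an upper limit of 20.4 CPM. The intervals of the groups overlapped in both replicates. Split by *Nr2f2*, the values were 21.7 against 9.17 CPM in replicate 1 and 19.9 against 5.24 in replicate 2, again with overlapping intervals in both. The *Madcam1* split partly follows the clusters: in replicate 1, cluster 1 had 611 cells with and 129 without, while cluster 3 had 124 without, holding 0 *St6gal1* UMIs. In PCV of replicate 1 the level was 60.7 CPM with *Madcam1* and 102 without, with overlapping intervals. In control PCV it was 80.3 CPM with (50.3 to 121.6), and 0 UMIs in 44 cells without, an upper limit of 83.8 CPM. These intervals overlapped too.

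**Figure D2:**
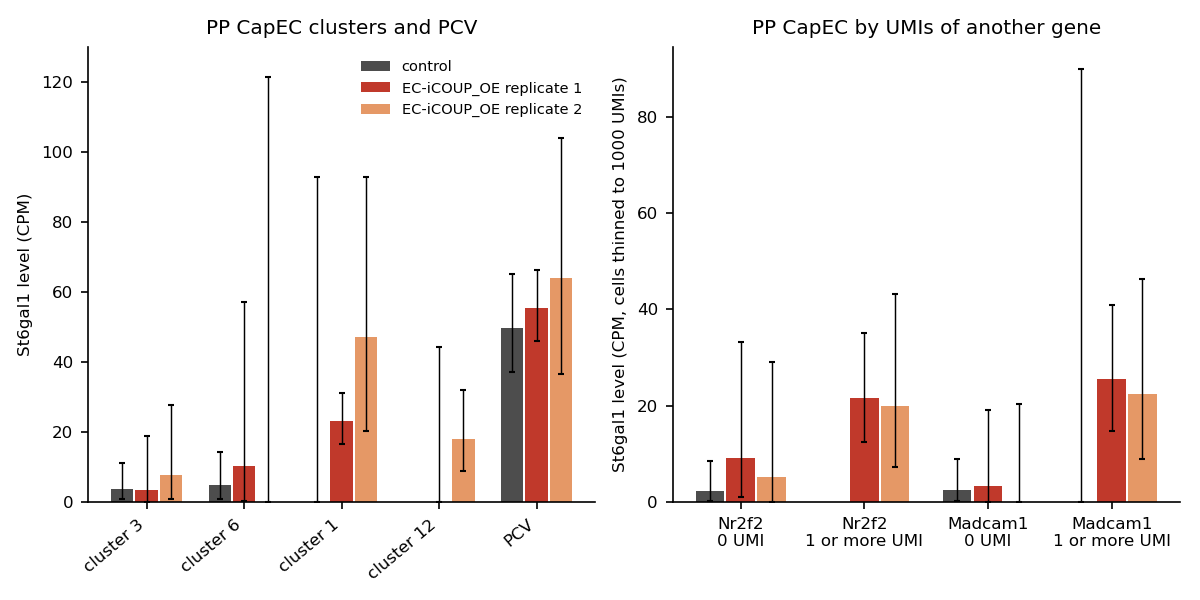
St6gal1 level (CPM, y axes) with 95% Poisson intervals as lines: on the left in the 4 PP CapEC clusters and PCV, on the right in PP CapEC split by whether a cell held a UMI of Nr2f2 or Madcam1 (cells thinned to 1000 UMIs). Cluster 3 stays at 3.37 to 7.69 CPM in all libraries, and replicate 1 cells with Madcam1 stand at 25.5 against 3.45 CPM; a line without a bar is a level of 0, and groups with too few cells are left out.

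Thinned to 1000 UMIs, the share of PP CapEC with a *St6gal1* UMI was 0.235% in the control (2 of 850 cells, exact binomial interval 0.0285 to 0.847%), 1.88% in replicate 1 (1.12 to 2.96%) and 1.42% in replicate 2 (0.573 to 2.90%). Unthinned shares were 0.706%, 4.60% and 3.85%. In PCV the thinned shares were 6.60%, 6.07% and 8.24%. Fibroblast-like control cells gave 0.763%, and lymphatic-like cells 0 of 923 in replicate 1, where a floor of 3 cells is 0.325% and the exact upper limit 0.399%. The interval of the control PP CapEC share held the fibroblast-like share, and how much of it is free RNA was not tested.

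Markers of other cells were summed beside the PP CapEC result. The 8 PCV markers, which include *Selp*, *Sele* and *Ackr1*, summed to 211 CPM in control PP CapEC and 2385 and 3161 in the replicates, with 0 of 8 markers at 0 UMIs in any library. In PCV themselves the sums were 7538, 6764 and 10809 CPM. Cells of PP CapEC with a UMI of *Selp*, *Sele* or *Ackr1* made up 1.65%, 9.94% and 11.6%, and without them the *St6gal1* log2 ratio was 2.27 ± 0.08 (SD, n = 2). HEC markers summed to 616, 517 and 585 CPM, fibroblast markers to 139, 0.872 and 8.38 CPM, and B-cell markers to 770, 393 and 496 CPM with 6, 7 and 5 of 8 at 0. A cell with few UMIs can hold venous RNA without a UMI of *Selp*, *Sele* or *Ackr1*, so leaving such cells out cannot measure that part. The part of venous or free RNA in the result was not tested.

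In the other blood EC classes *St6gal1* was not called. CRP held 0, 13 and 8 UMIs (26.1 and 46.8 CPM in the replicates), which is 4.42 and 7.92 times a floor of 3 UMIs in the control, with exact lower limits of 3.11 and 5.07 for the ratios to the 0 counted, but 21 UMIs fell short of the 50 required. LP CapEC held 2, 10 and 3 UMIs. In CRP 0 of 5 members with enough UMIs were called (3.07% of genes higher, 2.33% lower), in LP CapEC 0 of 1 (5.53% and 3.49%), in unnamed cluster 8 0 of 7 (3.78% and 0.958%), and in pericyte or smooth muscle-like cells 0 of 4 (2.17% and 2.57%). In PCV the log2 ratios were 0.16 (-0.32 to 0.65) and 0.37 (-0.54 to 1.20). Their mean of 0.26 depended on the processing and lay between 0.14 and 1.91 over the alternatives. Over all blood EC the levels were 15.7, 25.4 and 26.0 CPM, a mean log2 ratio of 0.71 ± 0.02 (SD, n = 2), under the 2-fold rule, so none of the 10 members was called, against 4.56% of genes called higher and 2.63% lower.

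Among the genes whose levels were most like those of *St6gal1* over 35 class and library sums, of 10192 genes compared, were *Gstm2* (Pearson r = 0.70), *Klk8* (0.68), *Adgrg6* (0.65) and *Cadm3* (0.63). The sums share libraries and differ in depth, so r is a description. *Adgrg6*, an adhesion receptor gene, was at 289, 335 and 204 CPM in PCV and 2.07 in control PP CapEC. *Gstm2* in PP CapEC was at 53.2 CPM in the control against 141 and 152, whereas *Klk8* was at 18.6, 13.5 and 14.9. The venular selectin gene *Selp* had r = 0.52, *Nr2f2* 0.32 and *Madcam1* 0.31.

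Among the α2,3-sialyltransferases, *St3gal6*, which acts on lactosamine chains and contributes to selectin ligands, had the most UMIs of the members, with 2663, 3956 and 744. It stood at 303, 257 and 323 CPM in PP CapEC, 282, 253 and 313 in PCV, and 340 and 476 in HEC. Fibroblast-like cells held 4.43 CPM, 69.2 times lower than control blood EC (log2 ratio -6.11, -6.66 to -5.61). Pericyte or smooth muscle-like cells held 114, 86.3 and 14.0 CPM, and *St3gal6* was the 1 of 10 members at least 2-fold lower there than in blood EC in each library, against 2.27% of 11168 genes. No member was higher there, against 6.43%. The blood endothelium markers of this class were also lowest in replicate 2, and the part of endothelial RNA in its *St3gal6* levels was not tested. The PP CapEC log2 ratios of *St3gal6* were -0.24 and 0.09, and those of arterial EC -0.80 (-1.07 to -0.53) and -0.43 (-0.81 to -0.05). In unnamed cluster 11 it was called lower, at 237, 97.3 and 87.2 CPM, as 1 of 2 members tested, against 2.74% of genes, while 0 were higher, against 3.22%. This cluster held 118, 92 and 62 cells.

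*St3gal4*, the related enzyme of lactosamine chains, stood at 63.5, 83.7 and 62.4 CPM in PP CapEC, log2 ratios of 0.40 (0.03 to 0.77) and -0.03 (-0.50 to 0.44). In arterial EC it was 57.6 CPM in the control, 137 in replicate 1 and 93.4 in replicate 2, log2 ratios of 1.25 (0.75 to 1.79) and 0.70 (0.03 to 1.37). Both replicates were above the control, but replicate 2 did not reach 2-fold. Arterial EC too were made of different clusters: cluster 7 held 281, 101 and 40 cells and cluster 2 held 6, 621 and 151, and within cluster 7 *St3gal4* was at 58.8, 147 and 52.0 CPM. None of 7 members tested was called in arterial EC, against 4.47% of 7024 genes called higher and 3.93% lower.

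*St3gal1*, which caps core 1 O-glycans, was at 33.1, 29.2 and 30.7 CPM in PP CapEC and 28.1, 43.8 and 40.1 in PCV. In HEC it stood at 3.44 and 12.8 CPM, 9.65 and 2.28 times lower than in PP CapEC of the same library. *St6galnac4*, which adds a second sialic acid to those O-glycans, was 62.1, 70.2 and 57.7 CPM in PP CapEC and 15.6 and 17.9 in HEC, 3.98 and 3.92 times lower. Those 2 were the members lower in HEC than in PP CapEC, of 9 tested, against 10.4% of 8852 genes. As HEC cells held more UMIs than PP CapEC, these ratios of CPM are not ratios per cell. *St3gal3*, a further lactosamine enzyme, had 123, 82 and 16 UMIs in all and reached 50 UMIs in no single blood EC class. It ranged between 0 and 11.9 CPM over those classes, too few counts to compare.

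**Figure D3:**
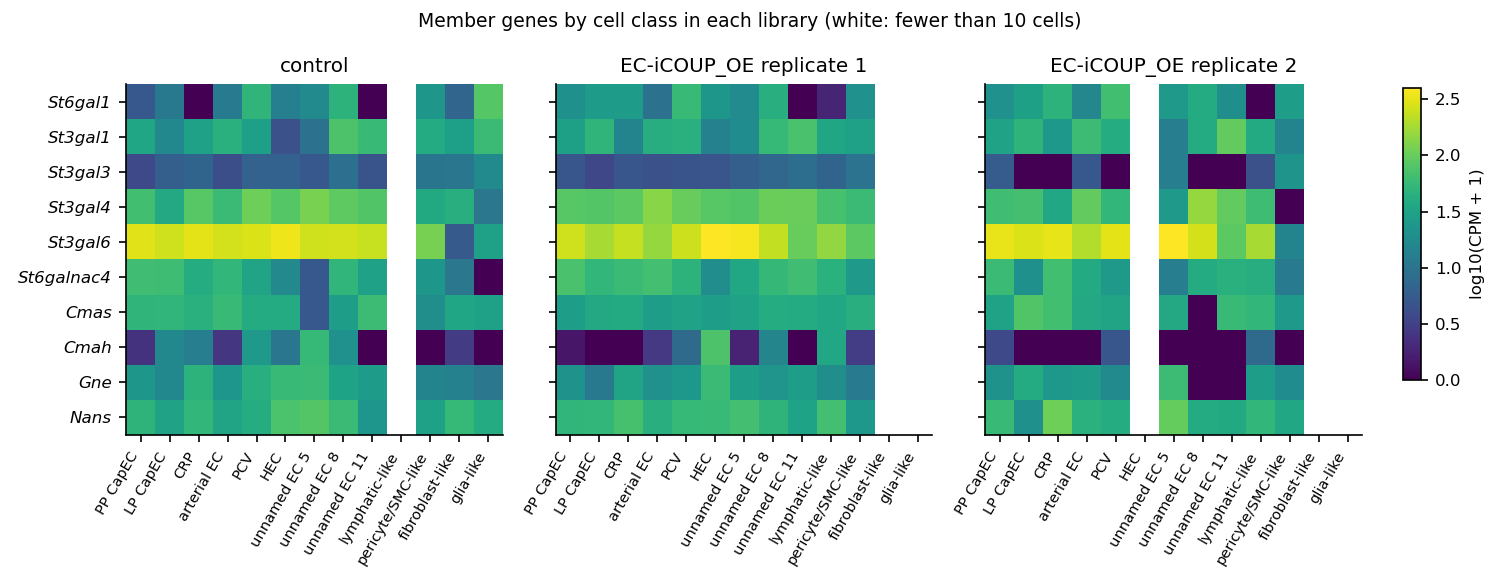
Levels of the 10 members (rows) in each cell class (columns) of the 3 libraries, as log10(CPM + 1) by colour; white marks classes with under 10 cells in a library. St3gal6 is high across blood EC and at 4.43 CPM in fibroblast-like cells, and Cmah is low in most classes; levels of different genes are not corrected for length or capture.

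*Gne*, the first and rate-limiting enzyme of sialic acid synthesis, was higher in HEC than in PP CapEC, at 55.9 and 57.6 CPM against 22.8 and 20.1, ratios of 2.45 and 2.87. With *Cmah* it made 2 of 9 members higher in HEC, against 4.15% of genes. In PCV *Gne* was 43.2 CPM in the control, 23.3 in replicate 1 and 16.0 in replicate 2 (4 UMIs), log2 ratios of -0.89 (-1.50 to -0.28) and -1.43 (-3.36 to 0.02). Both replicates were lower, but replicate 1 did not reach 2-fold, and 0 of 8 members were called in PCV, against 3.04% of 6851 genes called higher and 2.07% lower. Without integration of the libraries, where 1 *Gne* UMI of replicate 1 remained in PCV, the mean PCV ratio turned to 0.34, and that of *Cmah* to 0.18. The PP CapEC ratios of *Gne* were -0.18 and -0.15.

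*Nans* stood at 47.6, 51.0 and 54.9 CPM in PP CapEC, 32.0, 41.9 and 44.6 in arterial EC, 71.8 and 56.3 in HEC and 53.6 in fibroblast-like cells. *Cmas* was 49.7 CPM in control PP CapEC (72 UMIs), 27.9 in replicate 1 and 30.7 in replicate 2. Its log2 ratios were -0.83 (-1.34 to -0.33) and -0.69 (-1.34 to -0.08), a mean of -0.76 ± 0.10 (SD, n = 2). Both intervals excluded 0 for counting error, and the size stayed under 2-fold. By cluster the ratios were -1.11 (-2.40 to -0.01) and -0.92 (-2.21 to 0.18) in cluster 3, but 0.88 (-0.58 to 2.14) and 0.76 (-2.37 to 2.77) in cluster 6, where the replicates held 7 and 2 UMIs. In arterial EC the ratios were -1.03 and -0.63, while in clusters 7 and 2 the replicates held 47.8 and 72.8, and 24.4 and 26.7 CPM, against 55.5 in control cluster 7.

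*Cmah* had few UMIs in most blood EC classes. It had 2, 1 and 3 UMIs in all PP CapEC and 1, 4 and 0 in arterial EC, against 26, 15 and 1 in PCV (24.4, 6.99 and 4.01 CPM). CRP held 6, 0 and 0, LP CapEC 3, 0 and 0, and unnamed cluster 8 held 5, 16 and 0. The PCV log2 ratios were -1.80 (-2.83 to -0.83) and -2.61 (-7.96 to 0.00), but 42 UMIs were under the 50 required. In HEC it went the other way, from 9.37 CPM in the control (30 UMIs in 20 cells) to 72.9 in replicate 1 (57 UMIs in 20 cells, up to 12 in 1 cell), a log2 ratio of 2.96 (2.30 to 3.65). That was 1 of 8 members tested in HEC, where 7.48% of 6565 genes were at least 2-fold higher and 4.46% lower in the 1 replicate with enough cells. The 8 HEC markers summed to 84023 CPM in control HEC and 27100 in replicate 1, so the class differed between these libraries. How far the *Cmah* ratio comes from the makeup of the class was not tested. In unnamed cluster 5 (43, 451 and 22 cells) *Cmah* had 13, 2 and 0 UMIs. There *St6galnac4* (1, 89 and 1 UMIs) and *Cmas* (1, 78 and 3) made 2 of 6 members called higher, against 8.75% of genes, and 0 lower, against 2.03%, with 1 control UMI behind each ratio.

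Lymphatic-like cells of replicate 1 held 84 *Cmah* UMIs (35.2 CPM) and those of replicate 2 held 2 (6.83 CPM). Against blood EC of the same library, *Cmah* was the 1 of 10 members at least 2-fold higher, where 7.28% of 10641 genes were, and *St6gal1* the 1 lower, where 5.54% were. In control stroma, fibroblast-like cells had 5 of 10 members at least 2-fold lower than blood EC (*St6gal1*, *St3gal6*, *St6galnac4*, *Cmah* and *Gne*, log2 ratios -1.37 to -6.11) and 0 higher. Of 10876 genes 13.9% were lower and 17.2% higher. Glia-like cells had *St6gal1* (log2 ratio 2.38, lower bound 1.69) and *St3gal1* (1.43, 0.65 to 2.14) higher and 4 of 9 members lower, against 17.5% and 17.2% of 9141 genes. These stromal comparisons rest on 1 library.

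**Figure D4:**
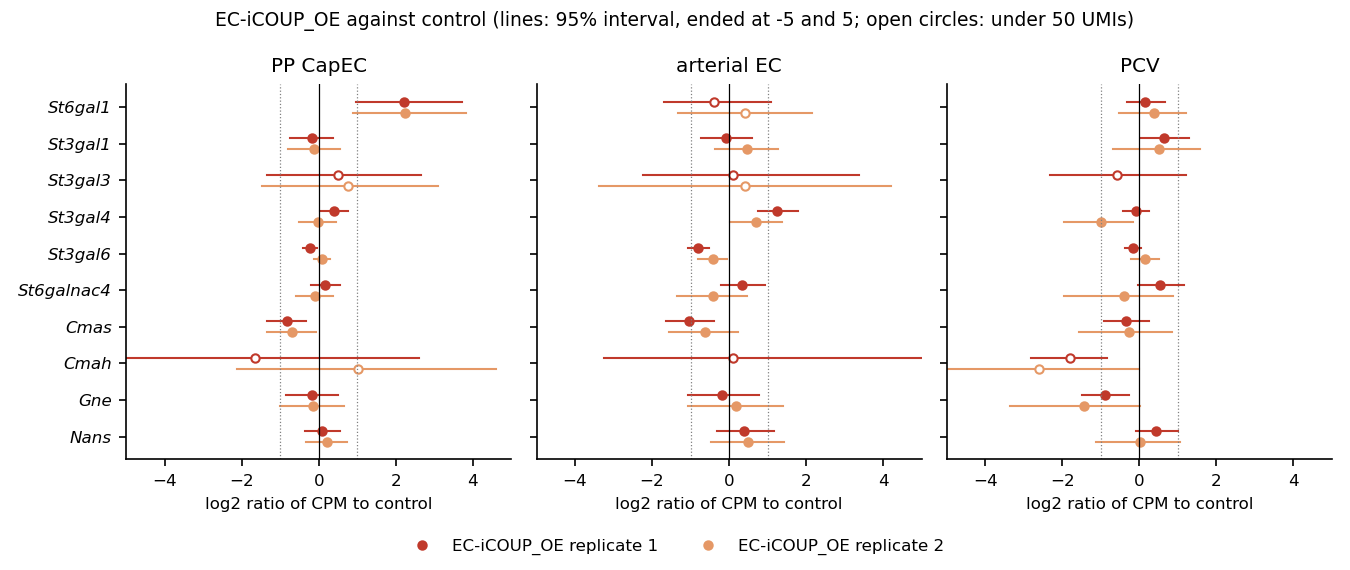
Log2 ratio of CPM in each EC-iCOUP_OE library to the control (x axis) for the 10 members (y axis) in PP CapEC, arterial EC and PCV; lines are 95% counting intervals ended at -5 and 5, dotted lines mark 2-fold, and open circles have under 50 UMIs. In PP CapEC St6gal1 stands at 2.21 and 2.24, and Cmas at -0.83 and -0.69.

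The members were set among 40 genes of the sialic acid and lactosamine pathway, of which 22 had enough UMIs in PP CapEC. There, 3 were called higher, *St6gal1*, *St6galnac6* and *B4galt5*, and 2 lower, *St6galnac2* and *St8sia6*, where 4.32% of all genes were called higher and 2.55% lower. In cluster 3 alone none of these 5 was called, but *St6gal1*, at 3, 1 and 2 UMIs, had too few to be called there. *B4galt1* was the 1 called of 11 pathway genes with enough UMIs in that cluster. Of the 5, edgeR called 1 (*St8sia6*) and DESeq2 0 at an adjusted p of 0.05. The median log2 ratios of the 22 genes were 0.03 and 0.01 in the replicates, against 0.01 and -0.12 for all genes tested. *St6galnac2*, an O-glycan sialyltransferase, had 188, 110 and 45 UMIs (130, 48.0 and 41.9 CPM), a mean log2 ratio of -1.53 ± 0.14 (SD, n = 2). It was also called lower in arterial EC and PCV. *St8sia6*, which adds α2,8-linked sialic acid, had 125, 51 and 29 UMIs and a mean log2 ratio of -1.82 ± 0.20 (SD, n = 2).

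On the other side, *St6galnac6*, which sialylates glycolipids, had 22, 84 and 43 UMIs (1.33 ± 0.09), and *B4galt5*, a galactosyltransferase of glycolipid synthesis, had 7, 27 and 18 (1.54 ± 0.36; SD, n = 2 for both). *St6gal1* had the largest mean log2 ratio in size of the 22. Outside them, *St3gal5*, the ganglioside GM3 synthase gene, looked up after its values were seen, had 31, 5 and 7 UMIs and a larger one, -2.51 ± 1.12 (SD, n = 2), but its 43 UMIs were under the 50 required. In arterial EC 1 of 19 pathway genes was called (*St6galnac2*, lower), where 4.47% of all genes were called higher and 3.93% lower. In PCV 3 of 23 were called (*B4galt1* higher, *St6galnac2* and *B4galt6* lower), where 3.04% of all genes were higher and 2.07% lower. No member was among these.

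**Figure D5:**
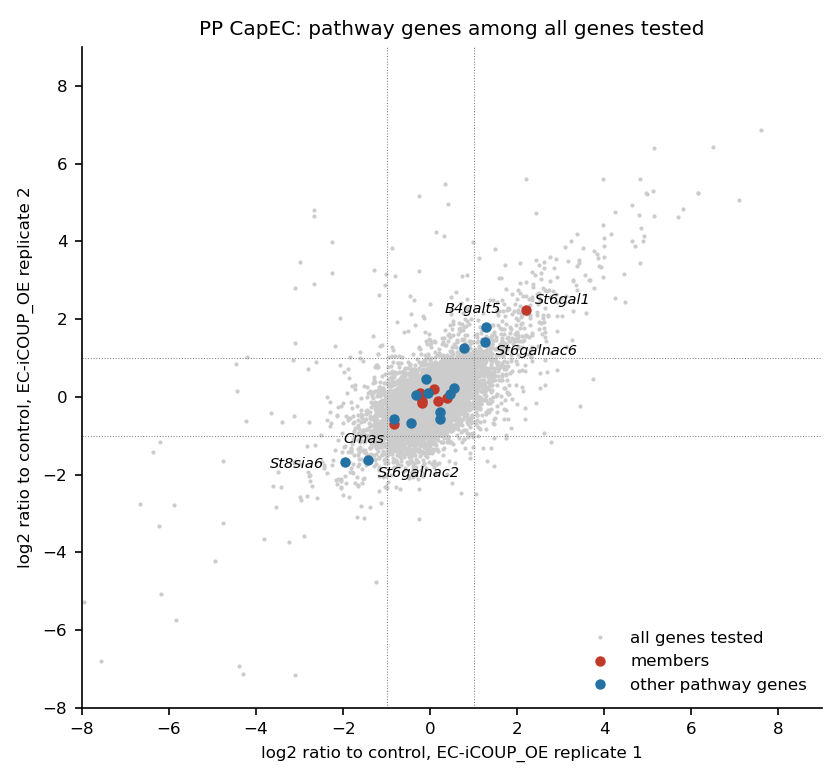
Log2 ratio to the control in PP CapEC for replicate 1 (x axis) and replicate 2 (y axis): grey points are all 7916 genes tested, red the members and blue the other pathway genes, with dotted lines at 2-fold. St6gal1 stands at 2.21 and 2.24, apart from the 7 other members tested, which lie within 2-fold in both replicates.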

How the data were processed

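Single-cell 3′ RNA sequencing was done on 3 libraries. The deposited values are raw UMI counts of each gene in each barcode, which the authors obtained on mm10 with Cell Ranger 3.0.2 per the labels; the header of EC-iCOUP_OE replicate 1 gives 3.1.0. From these counts, 5473, 4750 and 1243 barcodes passed the filters of at least 500 genes, at least 1000 UMIs and no more than 10% of UMIs from mitochondrial genes. Scanpy 1.11.5 called 132, 46 and 4 doublets at an expected rate of 6%, which were removed; the last is 0.322% of its cells, so doublets there may remain. Seurat 5.3.0 was used for integration and clustering (2000 variable genes, 30 components, 20 neighbours, resolution 1), first into lineages and then within blood EC, after cells with UMIs of another lineage's markers were left out.

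Clusters were named from 16 marker lists. After the clusters were seen, the interferon list and 7 haemoglobin genes were left out of naming, T, B and myeloid cells were joined as immune-like, and LP CapEC was set by cell labels in the study's supplement. The members, the pathway list and the marker lists were chosen with earlier results of these data known. Genes named beyond the members were pathway genes called in PP CapEC, *Nr2f2*, *Madcam1*, *Nkx2-3* and the 5 genes most like *St6gal1*, of which 1 is not reported here. *Selp* and the genes called in arterial EC and PCV were named after their values were seen.

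UMIs were summed per class and library and scaled to CPM. Classes with under 10 cells in a library were not used. Intervals were 95% Poisson (levels), conditional binomial (ratios) and Clopper-Pearson (shares). A count of 0 was set to a floor of 3 UMIs in ratios used for calls. Likeness to *St6gal1* was taken over log2(CPM + 10) in sums of at least 100000 UMIs, for genes with at least 200 UMIs. The calling rule was checked on simulated counts that held counting error only. That check cannot show how often differences between libraries or in cluster makeup lead to calls. With 1 control library, edgeR 4.0.16 and DESeq2 1.42.0 served only as alternatives that assume the control varies like the EC-iCOUP_OE libraries. Promoter sequences were from RefSeq for GRCm38.p6, with entries for 8 of 10 members.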

Additional observations from a re-analysis of the deposited data

Results flagged for a closer look

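In 5 comparisons of a member's response between cell classes, both EC-iCOUP_OE libraries moved one way in one class and the other way in another; none of these differences was tested. The mean log2 ratio of *St6gal1* to the control was 2.22 in PP CapEC and -0.22 in unnamed cluster 8, where replicate 2 held 1 UMI. The mean log2 ratio of *Cmas* was 2.99 in unnamed cluster 5, from 1 UMI in the control, against -0.76 in PP CapEC, -0.83 in arterial EC and -0.30 in PCV. The mean log2 ratio of *St3gal6* was -1.37 in unnamed cluster 11 and 0.64 in unnamed cluster 5.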

How the results depend on the processing

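The mean *St6gal1* log2 ratio in PP CapEC (2.22) was 2.40 at resolution 0.6, 2.77 without integration, 2.72 with doublets kept, 2.05 in cells of at least 2000 UMIs, 2.27 with TMM scaling, 2.40 without the top cell of each library, and 2.21 to 2.24 leaving out a replicate. Chosen after seeing the data, it was 0.43 in cluster 3, 0.47 in clusters 3 and 6, 2.27 without cells holding venous UMIs, and 2.59 with LP CapEC and CRP added. Members called in PP CapEC (1) became 0 at resolution 1.6 and 0 in cluster 3, in both of which *St6gal1* fell under 50 UMIs. They became 2 in cells of at least 2000 UMIs (with *St6galnac4*) and 2 at 1.5-fold (with *Cmas*, lower). Neither edgeR nor DESeq2 called any member at an adjusted p of 0.05, and DESeq2 gave *St6gal1* no adjusted p. Pathway genes called (5) became 3 without integration, 1 by edgeR (*St8sia6*), 0 by DESeq2 and 1 in cluster 3 (*B4galt1*). All genes called (544) became 846 in cells of at least 2000 UMIs, 883 at 20 UMIs, 1232 with no UMI filter, 1376 at 1.5-fold (699 higher, 677 lower), 120 by edgeR, 84 by DESeq2, 150 in cluster 3, and 1136 to 1187 leaving out a replicate. Unthinned shares of PP CapEC with a *St6gal1* UMI were 4.60% and 3.85% in the replicates. Of 307 alternative values of single members, 229 moved by less than the spread between replicates and 78 moved more. Leaving out a replicate always moves the mean by less than that spread, so those values among the 229 carry no information. That 0 reversed a call says little, since *St6gal1* in PP CapEC was the only member call in PP CapEC, arterial EC and PCV. The *St6gal1* ratio in PP CapEC kept its sign in 9 of 9 alternatives, as did uncalled *Cmas* there. Uncalled *St6gal1* in PCV (0.26) kept it in 9 of 9 too, but lay between 0.14 and 1.91. Further uncalled ratios near 0 also kept theirs in 9 of 9, such as *St3gal1* in PP CapEC (-0.15) and *Nans* in PCV (0.23). A kept sign is therefore no mark of *St6gal1*. Some uncalled ratios changed sign. *St6gal1* in arterial EC (0.01) kept it in 4 of 9, between -0.85 and 0.66. *Gne* in PCV (-1.16) kept it in 8 of 9, between -1.43 and 0.34. Fewer samples, genes or cells enter some of these settings by construction; the cause of the other changes was not tested.

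No paired analysis was possible, as there was 1 control library for the 2 EC-iCOUP_OE libraries. With 6 control UMIs of *St6gal1* in PP CapEC, counting error alone let the log2 ratio of replicate 1 lie between 0.98 and 3.73.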

Other observations

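Some values of single clusters and cells belonged to no comparison and were picked out after they were seen. Among control fibroblast-like clusters, *St3gal1* was at 96.5 CPM in cluster 19 (61.2 to 144.7) and between 14.1 and 28.2 CPM in the other 4. Of the 13 *Cmah* UMIs in control fibroblast-like cells, 11 lay in cluster 17 (30.9 CPM). In PP CapEC cluster 3, *St6galnac4* was at 60.6 CPM in the control, 131.6 in replicate 1 and 88.4 in replicate 2.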
